A study of Mus musculus with 8 samples.

Results

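Ncl, Nop58 and Rrs1 are 3 genes of ribosome production, chosen by symbol with earlier results of these data known. Their UMIs (unique molecular identifiers, the counted transcript tags) were followed across single cells of mouse stomach glands. The 3 genes stood among 779 genes with a full row in the deposited table, of which 210 had at least 100 UMIs in the barcodes used. Of 1460 cell barcodes, the 1388 with 100 or more UMIs in the table were used. The glands were of the genotype Atp4bCre; Rosa26NICD; Arid1aflox/flox at 23 weeks, and the labels list 8 samples of this 1 genotype, with no control. The labels do not say how many animals the glands came from. Atp4b encodes a subunit of the parietal cell proton pump, and its promoter drives Cre here. Rosa26NICD supplies the active intracellular part of Notch, and the floxed gene Arid1a encodes a subunit of the BAF chromatin remodelling complex. Cells had been sorted for high EPCAM, an epithelial surface protein, and for low Sytox Blue, a dye that enters dead cells.

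Barcodes carry no sample label, so all of them count as 1 pooled sample without replicates, and comparisons are between sets of barcodes within it. No barcode name occurred more than once. No p-value was computed, and every interval is a 95% interval for counting error only. The table covers genes on the first part of chromosome 1, so barcode totals (100 to 1082 UMIs, median 286) are totals of this part and not library depth. Of 33 markers of gastric, intestinal, endocrine, tuft, stromal and immune cells, 10 had a row. None of the gastric markers (Atp4a, Atp4b, Gif, Pgc, Pga5, Muc5ac, Gkn1, Tff1, Muc6 and Tff2) had a row, so the labelled tissue could not be checked against them. Vil1, an actin-bundling protein gene of brush borders, had a UMI in 854 barcodes. Col3a1 of fibroblasts had 1 UMI, as did Des of smooth muscle. Alpi of the intestine had a UMI in 61 barcodes. Ptpn18 and Inpp5d, listed for tuft cells, were found in 524 and 28 barcodes. Ptprn and Resp18 of endocrine cells were found in 40 and 13, and Ctla4 and Icos of immune cells in 6 and 1.

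Ribosomes are built in the nucleolus, where ribosomal RNA is transcribed, chemically modified, cut and joined with ribosomal proteins. Ncl encodes nucleolin, an abundant nucleolar RNA-binding protein that acts in transcription of ribosomal DNA and processing of its precursor RNA. Nop58 encodes a core protein of the box C/D small nucleolar particles, which guide ribose methylation of ribosomal RNA. Rrs1 encodes an assembly factor of the large ribosomal subunit, a role best known from Saccharomyces cerevisiae. Cells that grow and divide make many ribosomes, and the transcription factor Myc is a known activator of such genes, Ncl and Nop58 among them.

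On GRCm38, the assembly behind mm10, all 3 genes lie on chromosome 1. Rrs1 (ENSMUSG00000061024.8) spans positions 9545408 to 9547455 on the plus strand and has 1 exon. Nop58 (ENSMUSG00000026020.9) spans 59684971 to 59719044 on the plus strand, with up to 15 exons in its coding transcripts. Ncl (ENSMUSG00000026234.12) spans 86344719 to 86359400 on the minus strand, with up to 14 exons. Small nucleolar RNA genes lie inside both multi-exon genes on the same strand: Snora75, Snord82 and Gm24148 in Ncl, and Snord70, Snord11, Gm26293 and Gm26287 in Nop58. Each of these 7 small RNA genes had a row in the table with 0 UMIs. No gene on the opposite strand overlapped a member in the annotation.

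The sequences upstream of Ncl and Nop58 are shown as background, and no link between them and the results that follow was tested. They come from the RefSeq promoter table (GRCm38.p6), which held 2 of the 3 genes, and end before the first annotated transcript start. Lower case is the sequence 5′ to 3′ on the strand of the gene, and capitals mark matches, on either strand, to the motifs that were searched: the E-box CACGTG, the ETS core CCGGAA, the GC box CCGCCC, the CCAAT box CCAAT and the cyclic AMP response element core TGACG.
Nop58, chr1:59684756-59684960, plus strand: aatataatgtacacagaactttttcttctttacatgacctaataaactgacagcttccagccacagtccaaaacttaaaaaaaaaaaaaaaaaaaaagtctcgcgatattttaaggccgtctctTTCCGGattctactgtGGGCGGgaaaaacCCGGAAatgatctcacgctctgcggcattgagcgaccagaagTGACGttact
Ncl, chr1:86359456-86359705, minus strand: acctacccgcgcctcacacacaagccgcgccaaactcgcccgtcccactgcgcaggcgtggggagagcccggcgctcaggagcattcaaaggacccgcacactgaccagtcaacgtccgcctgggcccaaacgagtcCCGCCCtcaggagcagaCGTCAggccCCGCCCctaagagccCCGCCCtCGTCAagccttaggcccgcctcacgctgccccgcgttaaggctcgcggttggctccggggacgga
The Nop58 stretch of 205 bases was 40% G or C and held 2 ETS cores, 1 GC box and 1 response element core. The Ncl stretch of 250 bases was 69.6% G or C and held 3 GC boxes and 2 response element cores. No match overlapped another, and neither stretch held the letters of the E-box or the CCAAT box. Over the first 205 bases of all 32851 promoters in the table, 8.44% held an ETS core, 25.6% a GC box, 13.3% a response element core, 4.48% an E-box and 29.2% a CCAAT box. Over the first 250 bases the shares were 12.03%, 32.7%, 17.8%, 6.02% and 33.8%. A match describes letters in a window and says nothing of binding.

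Ncl was found in nearly every barcode, whereas Nop58 and Rrs1 were found in a minority. Levels are given as UMIs of a gene per 1000000 UMIs of the table in the same barcodes (CPM) and are not set against each other between genes. Ncl had 6401 UMIs, a level of 14556 CPM (14202 to 14917), and at least 1 UMI in 1296 barcodes, 93.4% (91.9 to 94.6). Nop58 had 1140 UMIs, 2592 CPM (2444 to 2747), with a UMI in 639 barcodes, 46.0% (43.4 to 48.7). Rrs1 had 539 UMIs, 1226 CPM (1124 to 1334), with a UMI in 413 barcodes, 29.8% (27.4 to 32.2). No cell type that should lack these genes could be set beside these shares, since all growing cells use them.

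Counts per barcode were low for Nop58 and Rrs1. A barcode held between 0 and 36 UMIs of Ncl, with a median of 4 and a mean of 4.61. For Nop58 the range was 0 to 10 with a median of 0 and a mean of 0.821, and for Rrs1 0 to 6 with a median of 0 and a mean of 0.388. All 3 genes were seen together in 230 barcodes, 16.6%, which had a median of 424 UMIs. None was seen in 57 barcodes, 4.11%, which had a median of 180 UMIs. The 3 barcodes richest in each gene held 1.53% of the Ncl UMIs, 2.37% of those of Nop58 and 2.60% of those of Rrs1. The richest 10% of barcodes held 30.1% of the Ncl UMIs, 43.5% of those of Nop58 and 49.0% of those of Rrs1, while the 10% with the largest totals held 19.7% of all table UMIs.

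**Figure D1:**
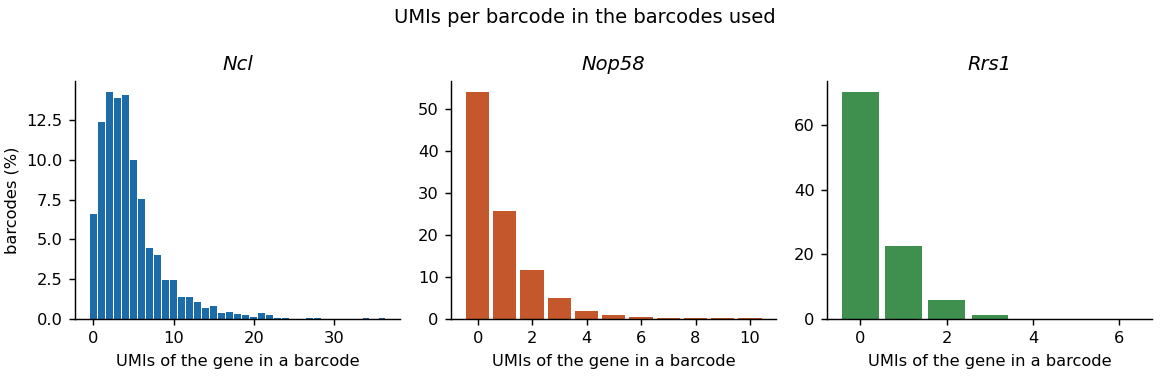
Share of the 1388 barcodes (vertical axis, percent) with each number of UMIs of Ncl, Nop58 and Rrs1 (horizontal axis), on separate scales. Ncl spreads from 0 to 36 UMIs, while most barcodes hold 0 UMIs of Nop58 (54.0%) and of Rrs1 (70.2%).

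Spread beyond counting error was seen for Ncl and for Nop58. Residuals were formed as the count minus the count predicted from the barcode total within 5 ranges of total, divided by the square root of the prediction, so that counting error alone gives a variance near 1. The variance was 1.79 for Ncl, 1.23 for Nop58 and 1.03 for Rrs1, against a median of 1.08 over the 210 genes. Of the other 209 genes, 15 had a larger variance than Ncl, 51 a larger one than Nop58 and 152 a larger one than Rrs1. At the same relative spread between barcodes, this variance is larger for a gene with a higher mean count. Its order therefore does not rank the genes by relative spread. The Rrs1 variance was close to that of counting error. At a mean of 0.388 UMIs per barcode it would stay near 1 even with some spread, so it cannot show that Rrs1 was even across barcodes.

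The level of Nop58 was highest in the barcodes with the most UMIs. Ranges of total are written with their lower bound included and their upper bound not. In order of barcode total, Nop58 had 2186 CPM (1802 to 2629) at 100–200 UMIs, 1815 (1562 to 2098) at 200–300, 2332 (2051 to 2641) at 300–400, 3075 (2784 to 3389) at 400–600 and 3896 (3359 to 4494) at 600 or more. Ncl had 14435 CPM (13417 to 15509), 13293 (12591 to 14025), 13035 (12358 to 13740), 15715 (15048 to 16405) and 17489 (16329 to 18710) in the same ranges. Ncl and Nop58 were therefore lowest in the middle or second range and highest in the deepest one, with no overlap of intervals between these. Rrs1 ran between 992 (807 to 1207) at 200–300 UMIs and 1394 (1201 to 1610) at 400–600, with overlapping intervals. That overlap does not show that the Rrs1 level was even across the ranges. The ranges held 330, 405, 307, 277 and 69 barcodes. Whether some deep barcodes held more than 1 cell was not tested.

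**Figure D2:**
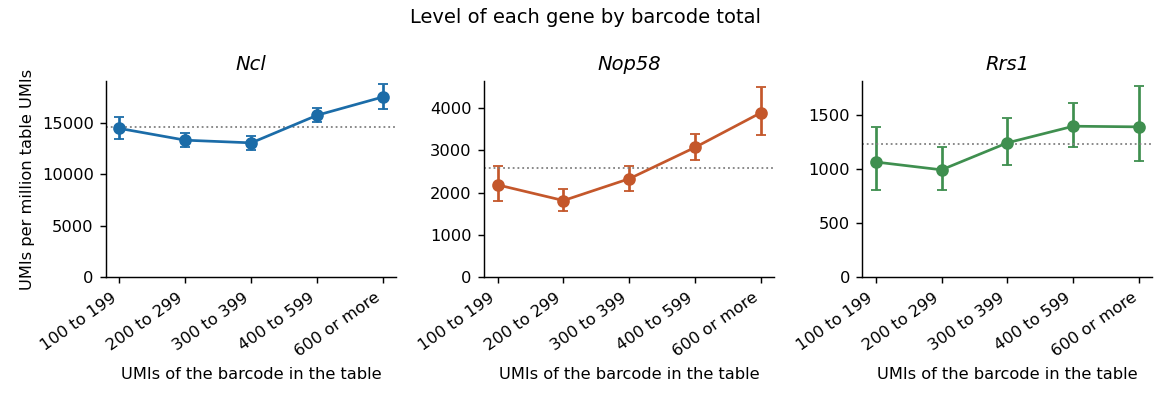
Level of Ncl, Nop58 and Rrs1 (vertical axis, CPM) by range of barcode total (horizontal axis). Points are levels, bars 95% counting intervals and dotted lines the level over all 1388 barcodes. Nop58 goes up to 3896 CPM in the deepest range, and the Rrs1 intervals overlap.

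Deep barcodes find a gene more often by depth alone, so the share of barcodes with a UMI was also computed for an equal depth of 100 UMIs per barcode. All 1388 barcodes have that depth, so none was left out. The Nop58 share seen was 27.6%, 31.4%, 52.1%, 72.2% and 88.4% over the 5 ranges, and at equal depth it was 19.6%, 15.6%, 20.5%, 25.5% and 31.2%. For Ncl the share seen was between 86.7% and 100%, and at equal depth between 69.3% and 77.8%. For Rrs1 the share seen went from 15.5% in the shallowest range up to 63.8% in the deepest, and at equal depth from 10.2% to 13.1%. Most of the gain in Rrs1 detection was absent at equal depth. Because levels move with barcode totals, the comparisons below hold the total within the same 5 ranges.

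Ncl and Nop58 varied together, and Rrs1 was only weakly tied to either. Barcodes were split, within each range of total, into those above and those not above the median share of one gene, and the level of another was compared as a ratio common to the 5 ranges. Nop58 had 3171 CPM in the 689 barcodes with a high Ncl share and 2101 CPM in the other 699, a ratio of 1.51 (1.34 to 1.70). Both sets had like depth, with medians of 287 and 285 UMIs. Rrs1 had 1352 CPM in the high Ncl barcodes and 1137 CPM in the others, a ratio of 1.19 (0.999 to 1.41). A gene is called higher where its level was up by at least 25%, and lower where it was down by at least 20%. Of the 209 genes compared, 8.13% were called higher (17 genes), and of the 2 members 1 was, Nop58.

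The reverse splits gave smaller ratios, but they are not like the Ncl split. The median Rrs1 share was 0 in each range under 600 UMIs, and the median Nop58 share was 0 in those under 300. There a high share means any UMI of the gene. In the 542 barcodes with a high Nop58 share, Ncl was 1.23 times (1.17 to 1.29) its level in the other 846, and Rrs1 was 0.990 times (0.829 to 1.18). In the 403 barcodes with a high Rrs1 share, Ncl was 1.07 times (1.02 to 1.13) and Nop58 1.15 times (1.02 to 1.30) its level in the other 985. No member was called higher in these 2 splits, where 8.61% and 5.74% of genes were. The barcodes split this way also differed in depth, with median totals of 323.5 against 264 UMIs for Nop58 and 366 against 269 for Rrs1. When every barcode was thinned to 100 UMIs, the ratio of Nop58 by Ncl share was 1.04 (0.829 to 1.31). Thinning leaves Nop58 far under 1 UMI per barcode, and why the ratio changed was not tested.

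The joint variation of Ncl and Nop58 was clearest in the deeper barcodes. Nop58 in barcodes of high over lower Ncl share had a ratio of 0.930 (0.631 to 1.37) at 100–200 UMIs, 1.11 (0.819 to 1.50) at 200–300, 1.59 (1.22 to 2.08) at 300–400, 1.74 (1.41 to 2.14) at 400–600 and 1.93 (1.42 to 2.64) at 600 or more. The Pearson correlation of the residuals of the 2 genes was 0.0227, 0.0987, 0.254, 0.269 and 0.476 in these ranges and 0.186 over all 1388 barcodes. Ncl with Rrs1 had 0.0401 and Nop58 with Rrs1 0.0495 over all barcodes. In the 69 deepest barcodes these were 0.249 and 0.340, and in the 4 shallower ranges between -0.0494 and 0.139. Correlations are a description: the barcodes share a pooled library, and sparse counts pull the values towards 0.

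Among the genes with 100 or more UMIs, those most like Ncl were the mitochondrial chaperonin gene Hspd1 (correlation 0.219 over 1388 barcodes), Nop58 (0.186), the replication helicase gene Mcm3 (0.178), Hspe1, the partner of Hspd1 (0.171), and Atic, an enzyme of purine synthesis (0.146). Over the 209 other genes the values centred near 0, with a median of -0.00749 and a 95th percentile of 0.0670. The lowest correlations with Ncl were those of Tmbim1 (-0.166), the respiratory chain gene Cox5b (-0.125) and the glutathione transferase gene Gsta3 (-0.109). For Nop58 the nearest were Ncl (0.186), the proteasome gene Psmd1 (0.162), Mcm3 (0.144), the DNA repair gene Ercc5 (0.134) and Hspd1 (0.129), against a 95th percentile of 0.0865. The 3 lowest for Nop58 were all ribosomal protein genes, Rpl37a (-0.144), Rpl7 (-0.110) and Rpl31 (-0.0990).

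No gene stood far out for Rrs1. Its 5 highest correlations were those of Hspe1 (0.0822), the telomere-binding protein gene Terf1 (0.0725), Cnnm3 (0.0719), Tex30 (0.0663) and the origin recognition gene Orc2 (0.0642), with a 95th percentile of 0.0475. Its lowest were those of Vil1 (-0.0719), Lmbrd1 (-0.0707) and the proton pump subunit gene Atp6v1h (-0.0619).

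Ncl and Nop58 were higher in barcodes with transcripts of DNA replication. Mcm3 encodes a subunit of the replicative helicase and Prim2 a subunit of the primase that starts new strands. A UMI of either was found in 282 barcodes. Their median total was 396 UMIs, and that of the 1106 barcodes with neither was 268.5. A barcode held 0 to 36 Ncl UMIs with a median of 6 in the first set, and 0 to 27 with a median of 3 in the second, so the sets overlapped widely. The quartiles of Ncl UMIs per 1000 table UMIs were 10.0 and 22.9 with a replication UMI, and 7.19 and 18.3 without.

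Nop58 had 3673 CPM in the barcodes with a replication UMI and 2202 CPM in those without, a ratio of 1.46 (1.28 to 1.66) with the total held within ranges. Ncl had 17818 CPM with and 13388 CPM without, a ratio of 1.28 (1.21 to 1.36). Rrs1 had 1406 CPM with and 1162 CPM without, a ratio of 1.13 (0.919 to 1.37), which did not differ detectably from 1 at this depth. Of the 3 members 2 were called higher, as were 13% of the 208 genes compared, whose median ratio was 1.00. Nop58 was number 12 and Ncl number 24 of these genes in order of ratio, and Rrs1 number 54.

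Within the ranges of total, the Ncl ratio was 1.00 (0.750 to 1.32) at 100–200 UMIs, 1.24 (1.07 to 1.43), 1.18 (1.04 to 1.34), 1.32 (1.21 to 1.44) and 1.46 (1.26 to 1.69) at 600 or more. The Nop58 ratio was 1.33 (0.645 to 2.49), 1.71 (1.17 to 2.44), 1.09 (0.793 to 1.48), 1.59 (1.31 to 1.94) and 1.47 (1.08 to 2.04). Both genes thus had ratios of at least 1 in all 5 ranges, with intervals above 1 in 4 ranges for Ncl and 3 for Nop58. The Rrs1 ratios lay between 0.911 and 1.80 and every interval included 1. Only 25 barcodes of the shallowest range had a replication UMI.

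For Ncl and Nop58, ratios were further from 1 with Mcm3 than with Prim2. In the 233 barcodes with an Mcm3 UMI, Nop58 was 1.55 times (1.36 to 1.77) and Ncl 1.34 times (1.26 to 1.42) its level in the barcodes without one, and Rrs1 1.07 times (0.864 to 1.32). There 12.5% of genes were called higher. In the 87 barcodes with a Prim2 UMI, no member was called higher, while 13.9% of genes were: Ncl was at 1.10 (1.01 to 1.19), Nop58 at 1.14 (0.937 to 1.37) and Rrs1 at 1.15 (0.854 to 1.53). Whether the Mcm3 and Prim2 ratios differ was not tested, since some barcodes belong to both.

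Ncl and Nop58 had levels with separate intervals in barcodes with no Mcm3 UMI and in those with the most. Over barcodes with 0, 1 and 2 or more Mcm3 UMIs, Ncl had 13424 CPM (13038 to 13818), 16484 (15486 to 17530) and 22348 (20817 to 23962). Nop58 had 2220 (2065 to 2384), 3521 (3068 to 4022) and 4611 (3930 to 5376), and Rrs1 1186 (1073 to 1307), 1201 (943 to 1507) and 1669 (1271 to 2153). These steps hold 1155, 160 and 73 barcodes, whose median totals were 273, 365.5 and 487 UMIs, so depth goes up along them too. All Rrs1 intervals overlapped, which does not show that its levels were alike. With the total held within ranges, the 93 barcodes with 2 or more UMIs of Mcm3 and Prim2 together had ratios of 1.50 (1.39 to 1.61) for Ncl, 1.58 (1.33 to 1.86) for Nop58 and 1.30 (0.986 to 1.69) for Rrs1. All 3 members were called higher there, as were 18.8% of genes.

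Read from the side of the members, Mcm3 had the highest ratio in both the Ncl and the Nop58 split among the 209 genes with 100 or more UMIs. Sgol2, with 53 UMIs in all, was at 3.49 (1.80 to 7.29) by Ncl share and 1.85 (1.03 to 3.44) by Nop58 share. Mcm3 had 1152 CPM in the high Ncl barcodes and 470.5 CPM in the others, a ratio of 2.45 (1.94 to 3.11). In the high Nop58 barcodes its ratio was 2.02 (1.62 to 2.54). Prim2 was number 3 of 209 by Ncl, at 1.84 (1.21 to 2.85), and stood at 1.23 (0.809 to 1.86) by Nop58. By Rrs1 share, Mcm3 had a ratio of 1.21 (0.967 to 1.51) and Prim2 1.26 (0.821 to 1.92). Orc2 was at 1.36 (1.01 to 1.84) by Ncl share, 1.26 (0.933 to 1.70) by Nop58 share and 1.35 (0.985 to 1.83) by Rrs1 share. Hjurp was at 1.52 (1.20 to 1.93), 1.10 (0.867 to 1.39) and 1.15 (0.898 to 1.47) in the same order. Bard1, with 51 UMIs, was at 1.86 (1.02 to 3.51), 1.15 (0.634 to 2.10) and 0.896 (0.469 to 1.66). By Rrs1 share Sgol2 was at 0.952 (0.523 to 1.71). These ratios read the same UMIs from the other side and are no further support.

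**Figure D3:**
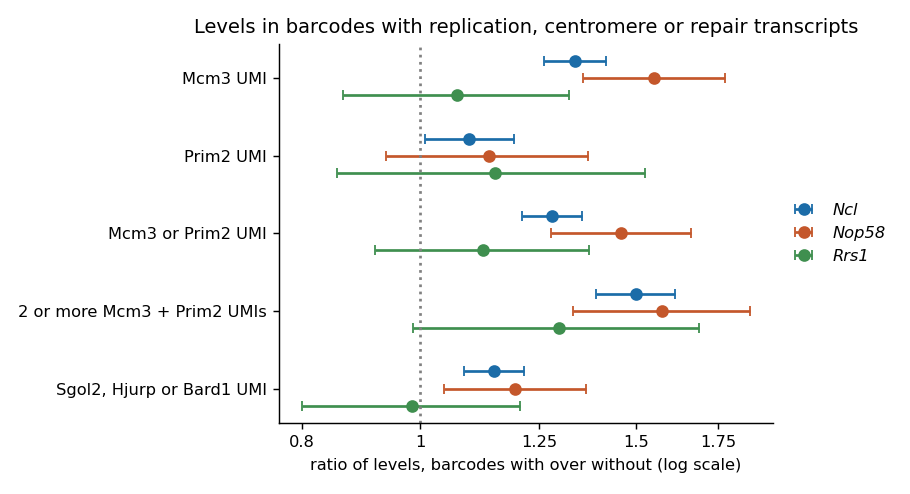
Ratio of the level of Ncl, Nop58 and Rrs1 (horizontal axis, log scale) in barcodes with over barcodes without the transcripts named on the left, with barcode totals held within 5 ranges. Points are ratios and bars 95% counting intervals; with an Mcm3 UMI Nop58 stood at 1.55 and Ncl at 1.34, while every Rrs1 interval includes 1.

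Barcodes with transcripts of the centromere genes Sgol2 and Hjurp or of Bard1, the partner gene of BRCA1, showed smaller differences. In these 283 barcodes Ncl was 1.15 times (1.09 to 1.22), Nop58 1.20 times (1.05 to 1.36) and Rrs1 0.984 times (0.8003 to 1.21) its level in the other 1105. No member was called higher, and 11% of genes were, Mcm3 among them at 1.86 (1.48 to 2.34). Median totals were 360 UMIs with such a transcript and 275 without.

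The 3 members stood differently towards the ribosomal protein share. The share of Rpl7, Rpl31 and Rpl37a, 3 proteins of the large subunit, was 38.0% to 41.8% of UMIs over the 5 ranges of total. A higher share lowers the share of every other gene by construction, so levels were taken over the UMIs without these 3 genes. Barcodes above the median ribosomal share (691) were set against the others (697), both with a median of 286 UMIs.

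Nop58 was lower where the ribosomal share was high. It had 3765 CPM of the other genes in the high share barcodes and 4812 in the low share barcodes, a ratio of 0.784 (0.695 to 0.885). Rrs1 had 2301 in the high and 1849 in the low share barcodes, a ratio of 1.245 (1.05 to 1.48). Ncl had 24984 in the high and 23873 in the low share barcodes, a ratio of 1.05 (0.997 to 1.10). Of the 207 genes compared, 9.18% were called lower, Nop58 among them, and 7.73% were called higher, with a median ratio of 0.982. Rrs1 lay just under the fold for such a call. Both genes were close to the fold, and neither call was stable: Nop58 was not called lower with Eef1b2 counted into the ribosomal share, at 0.814 (0.721 to 0.918), or with barcodes thinned to 100 UMIs, at 0.819 (0.649 to 1.03). Rrs1 was called higher in barcodes with 200 or more UMIs, at 1.32 (1.10 to 1.59), and was at 1.12 (0.798 to 1.56) after thinning. Nop58 was number 192 and Rrs1 number 17 in order of ratio.

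The Nop58 ratio was under 1 in all 5 ranges of total, between 0.720 (0.585 to 0.884) at 400–600 UMIs and 0.903 (0.610 to 1.33) at 100–200. For Ncl the direction went with depth: its ratio was 1.24 (1.07 to 1.43) at 100–200 UMIs, 1.18 (1.06 to 1.31), 1.04 (0.938 to 1.16), 0.946 (0.866 to 1.03) and 0.971 (0.845 to 1.11) at 600 or more. The Rrs1 ratio was 0.729 (0.402 to 1.29) in the shallowest range and between 1.09 and 1.57 in the others, with an interval above 1 only at 400–600 UMIs (1.17 to 2.13).

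Over 5 bins of barcodes by ribosomal share, from the lowest (30.9% of UMIs) to the highest (49.5%), Nop58 had 4957 (4415 to 5548), 4890 (4326 to 5506), 4267 (3730 to 4860), 3705 (3188 to 4283) and 3581 (3040 to 4191) CPM of the other genes. The intervals of the lowest and the highest bin did not overlap. Ncl had its lowest level, 22397 (21226 to 23615), in the lowest bin and lay between 24192 and 25492 in the other 4. Rrs1 lay between 1834 and 2308 with overlapping intervals, which does not show an even level. Measured over all UMIs, the ratio of high to low ribosomal share was 0.662 (0.586 to 0.747) for Nop58, 0.881 (0.838 to 0.925) for Ncl and 1.05 (0.883 to 1.247) for Rrs1, so the side on which Ncl stood depended on the denominator.

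**Figure D4:**
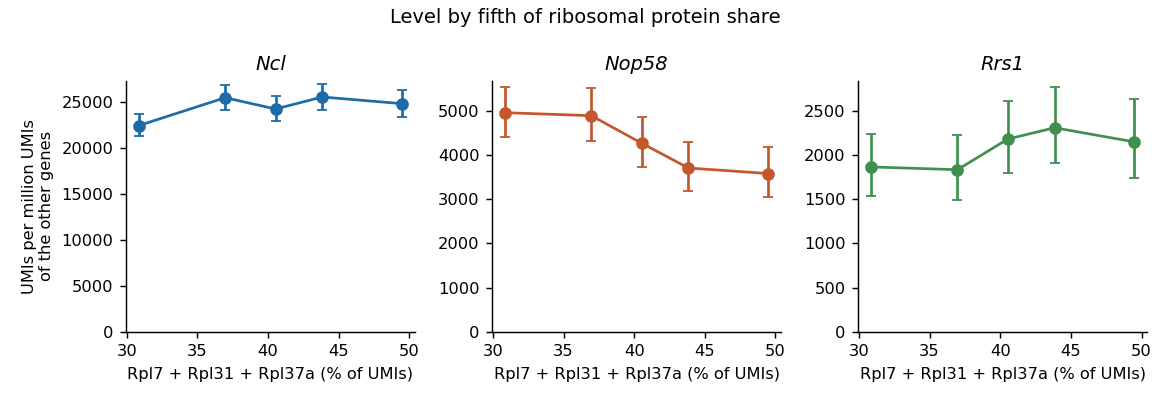
Level of Ncl, Nop58 and Rrs1 (vertical axis, CPM over genes other than Rpl7, Rpl31 and Rpl37a) in 5 bins of the share of these 3 genes (horizontal axis, percent of UMIs). Points are levels and bars 95% counting intervals; Nop58 stands at 4957 in the lowest bin and at 3581 in the highest.

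Seen from the members, the ribosomal protein genes were close to even. In barcodes of high Ncl share Rpl7, Rpl31 and Rpl37a stood at 0.989 to 0.993 times their level in the others. In barcodes of high Nop58 share Rpl7 was at 0.946 (0.929 to 0.963), Rpl31 at 0.955 (0.936 to 0.974) and Rpl37a at 0.946 (0.933 to 0.959), and the elongation factor gene Eef1b2 at 0.958 (0.930 to 0.985). By Rrs1 share the 3 genes stood between 0.999 and 1.00. In barcodes with a replication UMI Rpl7 was at 0.922 (0.902 to 0.942) of its level in those without, Rpl31 at 0.969 (0.946 to 0.992) and Rpl37a at 0.986 (0.970 to 1.00).

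**Figure D5:**
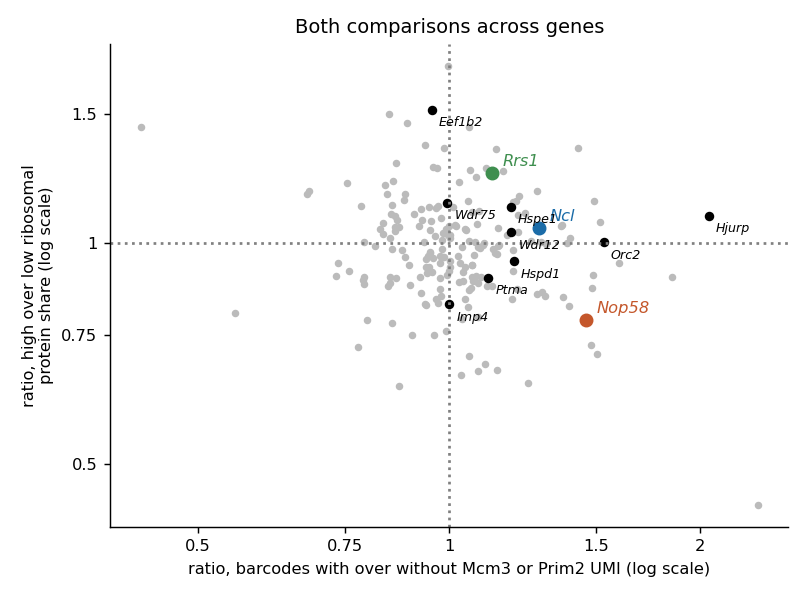
Ratio by ribosomal protein share (vertical axis, high over low, log scale) against ratio by replication transcripts (horizontal axis, with over without a UMI of Mcm3 or Prim2, log scale) for 205 genes with 100 or more UMIs. Grey points are genes without a name here; Nop58 lies to the right and low (1.46 and 0.784), Ncl to the right and near the middle (1.28 and 1.05) and Rrs1 high (1.13 and 1.245).

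Other genes of ribosome production were taken from a list of 89 symbols, of which 7 had a row, the 3 members included. The other 4 were Wdr12, a partner of Pes1 and Bop1 in large subunit maturation (321 UMIs), Wdr75 (316 UMIs), Imp4 (586 UMIs) and Utp14b (45 UMIs), and Wdr75, Imp4 and Utp14b act in small subunit processing. In barcodes with a replication UMI none of the 3 with at least 100 UMIs was called higher: Wdr12 was at 1.19 (0.911 to 1.54), Wdr75 at 0.995 (0.754 to 1.30) and Imp4 at 1.00 (0.820 to 1.22). Their median was 1.00, the same as over all genes.

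Wdr12 was higher in barcodes of high Ncl share, at 1.50 times (1.19 to 1.89) its level in the others, and in those of high Nop58 share, at 1.51 times (1.20 to 1.90). Wdr75 was at 1.13 (0.901 to 1.42) by Ncl share and 1.43 (1.13 to 1.80) by Nop58 share. Imp4 was at 1.14 (0.965 to 1.34) and 1.16 (0.978 to 1.37). By Rrs1 share Wdr12, Wdr75 and Imp4 were at 1.11, 0.990 and 0.900, each with an interval that included 1. By ribosomal share Imp4 was at 0.825 (0.696 to 0.976), on the same side of 1 as Nop58, Wdr12 at 1.03 (0.824 to 1.29) and Wdr75 at 1.13 (0.904 to 1.42). Utp14b, with few UMIs, was at 0.511 (0.256 to 0.981) by Ncl share and 2.22 (1.16 to 4.37) by ribosomal share.

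Of 7 genes of translation and growth, 1 was called higher by Ncl share, the chaperonin gene Hspd1 at 1.32 (1.24 to 1.40), beside 8.13% of all genes. The median ratio of the 7 was 0.998, and that of all genes 0.996. Its partner Hspe1 was at 1.17 (1.13 to 1.21) and the prothymosin gene Ptma at 1.07 (1.05 to 1.10). By Nop58 share Hspd1, Hspe1 and Ptma were at 1.18 (1.11 to 1.252), 1.08 (1.04 to 1.12) and 1.02 (1.00 to 1.05), and by Rrs1 share at 1.12 (1.05 to 1.19), 1.09 (1.05 to 1.13) and 1.00 (0.980 to 1.02).

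Ncl and Nop58 differed little in barcodes rich in each of 6 other genes, among them Gsta3, Ptpn18, the chemokine gene Ccl20, the fibronectin gene Fn1 and the intestinal alkaline phosphatase gene Alpi. Sets were barcodes with 10 or more UMIs of Gsta3 (182) or with 3 or more of Ptpn18 (64), Ccl20 (42), Arl4c (126), Fn1 (50) or Alpi (21), each against all other barcodes. Of the 18 ratios, 16 lay between 0.882 and 1.11. The other 2 were those of Rrs1, at 0.749 (0.579 to 0.958) in Gsta3-rich barcodes, where 12% of genes were called lower, and at 0.694 (0.386 to 1.16) in Fn1-rich barcodes, where 22.5% were. Ncl was at 0.887 (0.828 to 0.950) in Gsta3-rich and 0.882 (0.777 to 0.996) in Ptpn18-rich barcodes. The median total was 407.5 UMIs in Gsta3-rich barcodes and 274.5 in all others, and the part of depth in these ratios beyond the 5 ranges was not tested.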

How the data were processed

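Stomach gland cells of 8 samples of 1 genotype were measured on the 10x platform, per the labels' protocols. Cell Ranger, Seurat 2.3.0 and mm10 appear, without roles, in the submitters' processing notes. The deposited table holds whole-number counts per gene and barcode that the authors did not normalise; they were read as UMIs. The annotation is not given in the sources used here, nor is any filter. The incomplete last row was left out. In GENCODE vM21, 711 of 779 symbols matched chromosome 1.

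Barcodes with 100 or more UMIs were kept (439743 of 444786 UMIs). Levels carry exact Poisson intervals and shares exact Clopper-Pearson intervals. Ratios are the common rate ratio over 5 ranges of barcode total, with an exact conditional interval (sum of binomials), computed with scipy 1.17.1 in Python 3.11.15. The genes that split barcodes were left out of the totals. Residuals were limited to 10 in size. Background shares use genes with 100 or more UMIs and calls of at least 25% higher or 20% lower. No doublet caller was run. Ratio and correlation scripts were tested on simulated data. Named genes were the members, the list genes with a row and, for each member, the 5 highest and 3 lowest correlations. Members and lists were chosen with earlier results of these data known.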

Additional observations from a re-analysis of the deposited data

Results flagged for a closer look

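The 72 barcodes with fewer than 100 UMIs, which no comparison used, also held transcripts of all 3 genes above a limit of 595 CPM, which is 3 counts over the 5043 UMIs there and the most that a count of 0 allows. Ncl had 80 UMIs in 46 of these barcodes, 15864 CPM (12579 to 19744), or 1.09 times (0.863 to 1.36) its level in the barcodes used. Nop58 had 19 UMIs in 15 barcodes, 3768 CPM (2268 to 5884), 1.45 times (0.872 to 2.28) that level, and Rrs1 6 UMIs in 6 barcodes, 1190 CPM (437 to 2590), 0.971 times (0.355 to 2.13). Each interval includes the level of the barcodes used.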

How the results depend on the processing

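Over 122 recomputed values, 101 stayed within the counting interval of the reported value (for correlations, a 95% normal interval for the number of barcodes) and 21 moved out of it. Levels moved to 14195 CPM for Ncl and 2432 for Nop58 in barcodes under 600 UMIs, to 2349 for Nop58 and 1088 for Rrs1 when each barcode was thinned to 100 UMIs and so weighed alike, and to 28922, 5151 and 2435 for Ncl, Nop58 and Rrs1 with Rpl7, Rpl31, Rpl37a and Ptma left out of the total. Thinning, which leaves few UMIs, also moved the correlation of Ncl with Nop58 to 0.0599 and with Rrs1 to -0.0205, the ratios by Ncl share to 1.04 for Nop58 and 0.912 for Rrs1, and the ratios by replication transcripts to 1.27 for Nop58 (0.860 to 1.83) and 0.671 for Rrs1 (0.283 to 1.37). On log2 values the correlation of Ncl with Nop58 was 0.118. Without ranges of total, Rrs1 by Nop58 share was 1.18 and Nop58 by replication transcripts 1.67. With 2 or more replication UMIs Ncl was 1.50, and with Prim2 alone Ncl was 1.10 and Nop58 1.14. By ribosomal share over all UMIs, Ncl was 0.881 (0.838 to 0.925), on the other side of 1 from the reported 1.05 (0.997 to 1.10), and Nop58 was 0.662. Ncl had intervals above 1 in barcodes under 600 UMIs (1.06), with Eef1b2 in the ribosomal share (1.08) and between the outer quartiles of share (1.10). Nop58 by ribosomal share lost its call with Eef1b2 (0.814) and after thinning (0.819). The causes were not tested. No paired analysis was possible because the labels give 1 group and the barcodes carry no sample.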
